A study of Mus musculus with 19 samples.

Results

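Each pair examined here joins 1 kidney library and 1 liver library of mice with the same genotype label and the same number, and the question was whether genes that lay above or below their group mean in a kidney did so in the liver of that number too. There were 9 such pairs, knockout 13, 14, 15, 16 and 18 and wild-type 19, 20, 22 and 24, holding 18 of the 19 libraries of the series. The kidney labelled wild-type 23 has no liver partner and was not used. The measure was the log2 deviation of a gene from the mean of its tissue and genotype, and the genes were the 8920 of 26506 with a mean of at least 5 CPM (gene counts scaled to a common library size) in both tissues. This measure describes variation within a genotype, so the difference between knockout and wild type is taken out by construction.

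The mice were males, either homozygous macroH2A1.1 knockouts or wild type, bred from heterozygous parents and backcrossed to C57BL/6J. MacroH2A1.1 is a splice form of the histone variant gene H2afy that can bind ADP-ribose, and the knockout, made with soluble Cre in zygotes, removes only the exon that is specific to it (6b). Gene-level H2afy counts therefore include the other splice form in every mouse. Whole kidney or liver was homogenised and polyadenylated RNA was sequenced. The study's mice received a standard or a ketogenic diet, but which diet belongs to which number, the age, the hour of collection and any processing batch are not given in the sources used here. The labels do not say that equal numbers mark 1 animal, so every p-value here reflects spread among libraries, which may be partly technical.

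Signals that reach several organs through the blood can move the same genes in kidney and liver. Growth hormone acts through the kinase JAK2 and the transcription factor STAT5, which switches on its own inhibitors of the SOCS family. Glucocorticoids act through a nuclear receptor that binds DNA, and their secretion follows the daily cycle. Heat and unfolded protein release the transcription factor HSF1, which binds heat shock elements ahead of chaperone genes, while cooling raises cold-inducible RNA-binding proteins. RNA quality, dissection and library preparation can also differ from one mouse or one pair to the next.

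Total counts were 25919138 to 35131720 in the kidney libraries and 26084473 to 34806035 in the liver libraries. Tissue markers matched the labels: albumin reached 75290 to 101300 CPM in liver, and the kidney tubule gene Umod spanned 1543 to 2508 CPM across the kidneys and reached no more than 0.0403 CPM in any liver. Kidney 13 held 30.8 CPM of albumin against at most 7.16 CPM in the other kidneys. Kidney 16 carried 216 CPM of 12 adrenal markers against 3.81 to 5.60 CPM in the other 8 kidneys. Liver 13 had 28.5 CPM of skeletal muscle markers against 2.46 to 15.4 CPM in the other livers.

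The pair labelled wild-type 24 differed from the other 3 wild-type pairs in H2afy, Unc5a and Cxcl14. H2afy stood at 48.8 CPM in its kidney, against 36.2 to 43.1 CPM in the 5 knockouts and 60.7 to 67.7 CPM in the other 3 wild types, and at 72.0 CPM in its liver, against 58.3 to 71.3 and 101 to 117 CPM. Unc5a, a netrin receptor gene lower in the knockout libraries, was at 1.09 CPM in that liver, against 0.730 to 1.33 CPM in knockouts and 3.30 to 4.53 CPM in the other wild types, and at 1.31 CPM in that kidney, between 0.304 to 0.724 and 2.82 to 3.06 CPM. The chemokine gene Cxcl14 was at 20.3 CPM in the kidney, near the 10.3 to 17.9 CPM of the knockouts and away from the 35.9 to 36.2 CPM of the other wild types, and at 26.7 CPM in the liver, within the 14.6 to 40.0 CPM of the knockouts. In kidney all 3 values of this pair lay between the knockouts and the other wild types. In liver Unc5a and Cxcl14 lay within the knockout range and H2afy just above it. The 3 genes are near each other on chromosome 13 (54949411 to 56296551), so they are not independent signs of genotype. Its deviations are measured from the mean of the 4 pairs labelled wild type. Results that rest on it are therefore given with it and, where a gene could be tested, without it. Where pairs are listed by number alone, 24 stands for this pair.

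The correlation r between kidney and liver deviations of equal number was above 0 for most genes. The mean r over the 8920 genes was 0.244 and the median 0.292, r was above 0 for 73.0% of genes and above 0.5 for 30.9%, and 407 genes lay above 0.8 against 27 below -0.8. When the liver numbers were exchanged within each genotype in every possible way, 12 arrangements, the labelled one included, gave a mean at least as large (exact permutation test, two-sided p = 0.00417, n = 9 pairs). Leaving out the pair labelled wild-type 24 gave a mean r of 0.240 (exact permutation p = 0.0153). Without knockout pair 13 the mean was 0.155 (exact permutation p = 0.0365), over 1.5 times lower, and without pairs 13 and 22 together it was 0.120 (exact permutation p = 0.16).

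**Figure D1:**
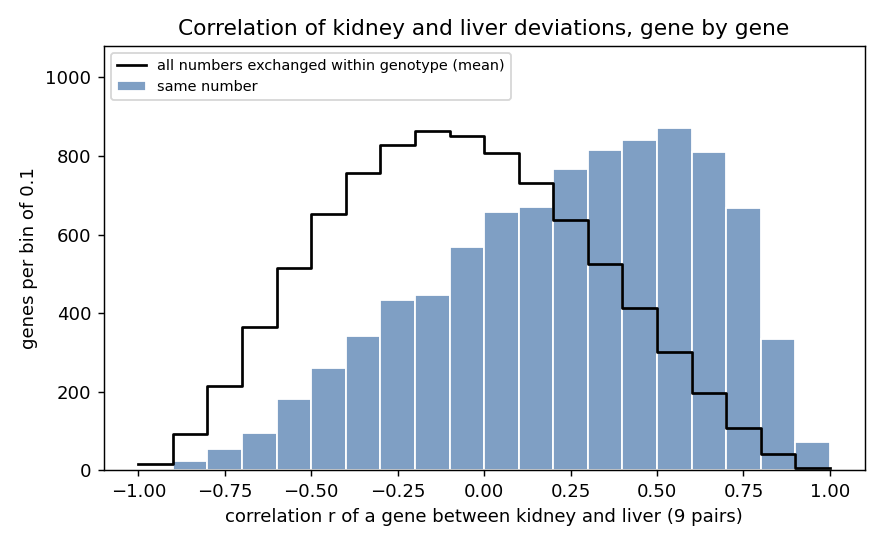
Number of genes (vertical axis) by the correlation r between kidney and liver deviations over 9 pairs (horizontal axis), for the labelled numbers and as the mean over arrangements in which every liver number was exchanged within its genotype. The labelled numbers put more genes to the right, with a median r of 0.292 and 73.0% of genes above 0. Centring on the group mean moves the exchanged values to the left where own-number r is above 0, so part of the gap is set in advance.

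Seen library by library, 6 of the 9 kidneys correlated across genes best with the liver of their own number when set against the livers of their genotype, and 7 of the 9 livers with their own kidney among the kidneys of theirs. Against all 9 libraries of the other tissue, 4 kidneys and 7 livers correlated best with their own number. Own-number correlations were 0.0920 in knockout pair 14 to 0.531 in knockout pair 13, with a mean of 0.307 ± 0.154 (SD, n = 9 pairs), and 8 of the 9 were above 0.1. The 32 other kidney and liver combinations within a genotype had a mean of -0.0826 and a range of -0.504 to 0.449, so the ranges overlapped. A mean below 0 among the unmatched combinations follows from centring on the group mean. These correlations are across genes, which are not independent replicates.

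**Figure D2:**
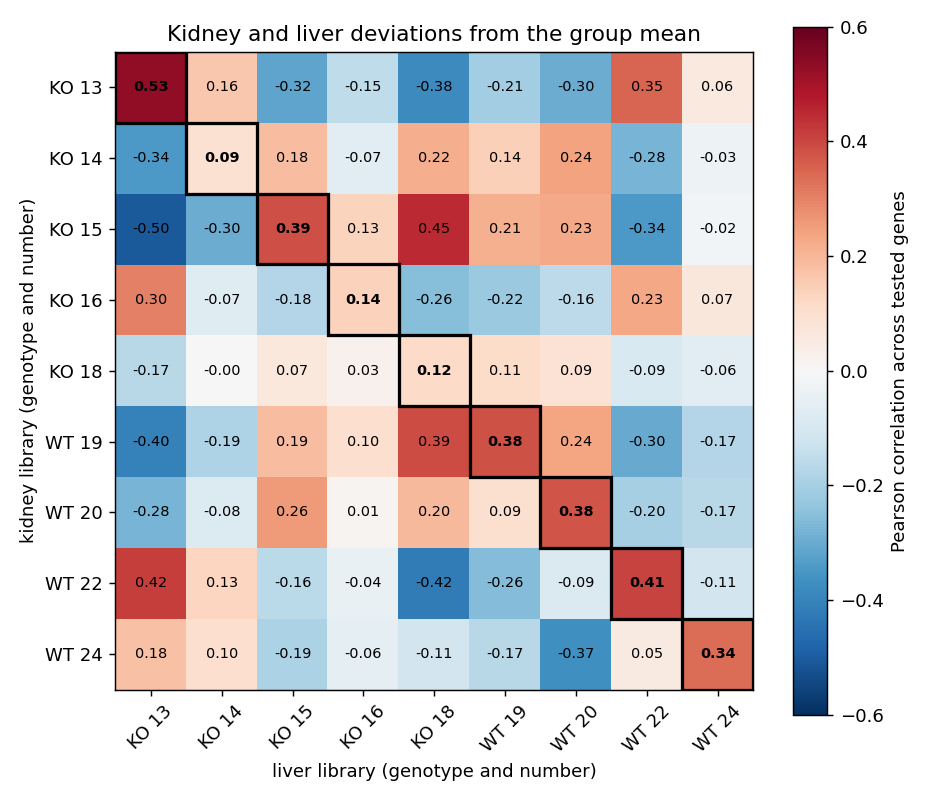
Correlation across 8920 genes of the log2 deviations of each kidney library (rows) with each liver library (columns), own-number combinations boxed. Own-number cells run from 0.0920 to 0.531, and 4 of 9 kidneys reach the highest value of their whole row there, or 6 of 9 when a row is read only over livers of the same genotype.

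A single gene was called when edgeR's quasi-likelihood F test of a deviation common to both tissues passed a Benjamini-Hochberg adjusted p of 0.05. By that rule 194 of 8920 genes (2.17%) carried a pair effect. Their r was 0.644 or higher, which the test favours by construction, and their median r was 0.840. With a smooth trend on transcript length and GC share taken out of each library, 68 genes (0.762%) were called, 63 of them among the 194. There were 14 genes called in each of the 9 fits that left out 1 pair and with the trend taken out: Socs2, Bcl6, Zbtb16, Fkbp5, Dnajb1, Atf4, Insig1, Mid1ip1, Cyp26b1, Pik3c2g, Banp, Nktr, Resf1 and Gm15962.

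Which pair was left out moved the count of called genes. It was 41 without pair 13, 597 without pair 14, 427 without pair 16, 128 without pair 18, 65 to 84 without any one of pairs 15, 19, 20 and 22, and 81 without the pair labelled wild-type 24. Of the 194 genes, 67 were called in at most 2 of those 9 fits. Pair 13 was the most deviant pair for 90 of the 194 genes, pair 18 for 51 and the pair labelled wild-type 24 for 29, and over all 8920 genes those shares were 30.9%, 19.1% and 11.9% against 46.4%, 26.3% and 14.9% of the called genes. The exact permutation test of r, gene by gene, left 0 genes after adjustment over 8920 correlations, with a smallest adjusted p of 0.282, while 1060 genes had an unadjusted p under 0.05 (1001 with r above 0 and 59 below). With 9 pairs that exact permutation test cannot go below p = 0.000347. In comparison, limma voom called 206 genes and DESeq2's likelihood ratio test 1532. For each called gene below, the low end of the range of adjusted p is the value from that DESeq2 test. For each gene below, the alternatives are the other scalings, filters, tools and left-out pairs. The value of r is also given without the 2 pairs farthest from the kidney median. There the deviations are still those from the group means of all 9 pairs unless stated. If a left-out pair lay far out in both tissues, the pairs kept in its group stay shifted the same way in both. Such an r can stay high for that reason and does not show that a gene is independent of the left-out pairs.

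Genes of growth hormone and STAT5 signalling were among the strongest. Of 12 listed genes 10 were tested and 3 were called (Socs2, Cish and Bcl6), against 2.17% of all genes, and the median r of the list was 0.64 against 0.292 over all genes. All 3 were also called with the length and GC trend taken out, and 2 remained past the threshold without the pair labelled wild-type 24. Socs2 and Cish encode SOCS-family inhibitors that STAT5 switches on, and Bcl6 encodes a transcriptional repressor whose mRNA growth hormone is known to lower in liver.

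Socs2, suppressor of cytokine signalling 2 (chr10:95385362-95417180, minus strand), had the smallest p of all genes. Socs2 was measured at 6.45, 10.6, 10.1, 10.8 and 11.7 CPM in knockout kidneys 13, 14, 15, 16 and 18 and at 13.6, 8.95, 7.3 and 38.1 CPM in the kidneys labelled wild-type 19, 20, 22 and 24. Liver Socs2 stood at 20.6, 46.7, 43, 44.1 and 39.1 CPM in the knockouts and at 38.4, 24.8, 25.9 and 93.9 CPM in the libraries labelled wild type, in the same order. Both tissues had their lowest knockout value in pair 13 and their highest value of all in the pair labelled wild-type 24, which lay outside the other 8. Socs2 deviations had r = 0.957 (exact permutation p = 0.0156) and rho = 0.817 (exact permutation p = 0.0278) between the tissues over 9 pairs, and r was 0.944 without pairs 22 and 24. Socs2 had an adjusted p of 0.000102 in edgeR (1.43e-48 to 0.0378 over its alternatives), and no single left-out pair ended the call. The highest-to-lowest ratio was 1.81-fold among knockout kidneys and 5.22-fold among kidneys labelled wild type.

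Cish encodes the cytokine-inducible SH2 protein, a relative of Socs2 (chr9:107296026-107302784, plus strand). Cish was measured at 17.6, 47.7, 14.2, 12.1 and 38.4 CPM in knockout kidneys 13, 14, 15, 16 and 18 and at 33.5, 7.28, 7.54 and 78.4 CPM in the kidneys labelled wild-type 19, 20, 22 and 24. Liver Cish stood at 41, 71.1, 8.71, 10.5 and 43.5 CPM in the knockouts and at 44.3, 2.35, 5.67 and 70.5 CPM in the libraries labelled wild type, in the same order. Values were high in pairs 14, 18 and 19 and in the pair labelled wild-type 24, and low in pairs 15, 16, 20 and 22, in both tissues, with pair 13 lying between in kidney and among the high ones in liver. For Cish the deviations gave r = 0.933 (exact permutation p = 0.00937) and rho = 0.9 (exact permutation p = 0.0121) over 9 pairs, with r = 0.899 once pairs 14 and 24 were left out. EdgeR gave Cish an adjusted p of 0.0237 (1.04e-15 to 0.0685 over its alternatives), and the call ended without pairs 18, 22 and 24 in turn (adjusted p = 0.0502, 0.0685 and 0.0527). The gene Hemk1, a methyltransferase gene 24299 bases away on chromosome 9, was called as well (r = 0.898) and was chosen for naming after its values were seen. Hemk1 had an adjusted p of 0.0231 in edgeR (6.05e-07 to 0.176 over its alternatives), and the call ended without pairs 13 and 18 in turn (adjusted p = 0.118 and 0.0518). A predicted gene on the opposite strand overlaps Cish, and the strand setting of the counting is not given in the sources used here.

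Bcl6 (chr16:23965052-23988852, minus strand) was high in the pairs where Cish was low, though the order of the pairs was not an exact reverse. Bcl6 was measured at 12.1, 12.9, 69, 69.2 and 11.1 CPM in knockout kidneys 13, 14, 15, 16 and 18 and at 20.8, 54.9, 51 and 16.5 CPM in the kidneys labelled wild-type 19, 20, 22 and 24. Liver Bcl6 stood at 20.0, 26.9, 55.8, 58.6 and 13.7 CPM in the knockouts and at 49.4, 113, 92.4 and 45.3 CPM in the libraries labelled wild type, in the same order. Knockout pairs 15 and 16 and wild-type pairs 20 and 22 were the high ones in both tissues, with no overlap between these and the other knockout pairs, so that r describes a split into separate levels more than a graded relation. Bcl6 deviations had r = 0.957 (exact permutation p = 0.000347) and rho = 0.967 (exact permutation p = 0.000694) between the tissues over 9 pairs, and r was 0.919 without pairs 15 and 16. Bcl6 had an adjusted p of 0.00367 in edgeR (5.72e-34 to 0.0264 over its alternatives), and no single left-out pair ended the call. The pairs highest for Bcl6 were those lowest for Cish. Bcl6 overlaps a predicted gene on the other strand. Bcl6 has more than 1 RefSeq transcript start. The window at the annotated start of the gene, chr16:23988853-23989102, held 1 STAT5-type motif, 118 bases before the start. A window that lies inside the annotated gene held more and is shown for that reason. The line gives 250 bases before a RefSeq transcript start on GRCm38.p6, chr16:23981284-23981533, minus strand, 5′ to 3′, with matches to TTCNNNGAA in capitals; 3 matches lie 168, 122 and 88 bases before the start.
Bcl6: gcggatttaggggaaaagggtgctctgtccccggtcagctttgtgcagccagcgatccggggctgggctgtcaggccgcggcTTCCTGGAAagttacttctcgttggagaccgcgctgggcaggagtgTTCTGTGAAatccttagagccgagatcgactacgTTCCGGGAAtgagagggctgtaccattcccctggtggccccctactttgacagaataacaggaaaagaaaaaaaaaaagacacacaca
That palindromic motif reads the same on both strands and was found in 7.01% of all 32817 promoter windows of this length and in 5.41% of the 9145 windows of tested genes. Among the 17 windows of tested list genes 5 held it (29.4%), from Bcl6, Igfals and Prlr. The window of Cish held none. A match is a description of letters, not a shown binding site.

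**Figure D3:**
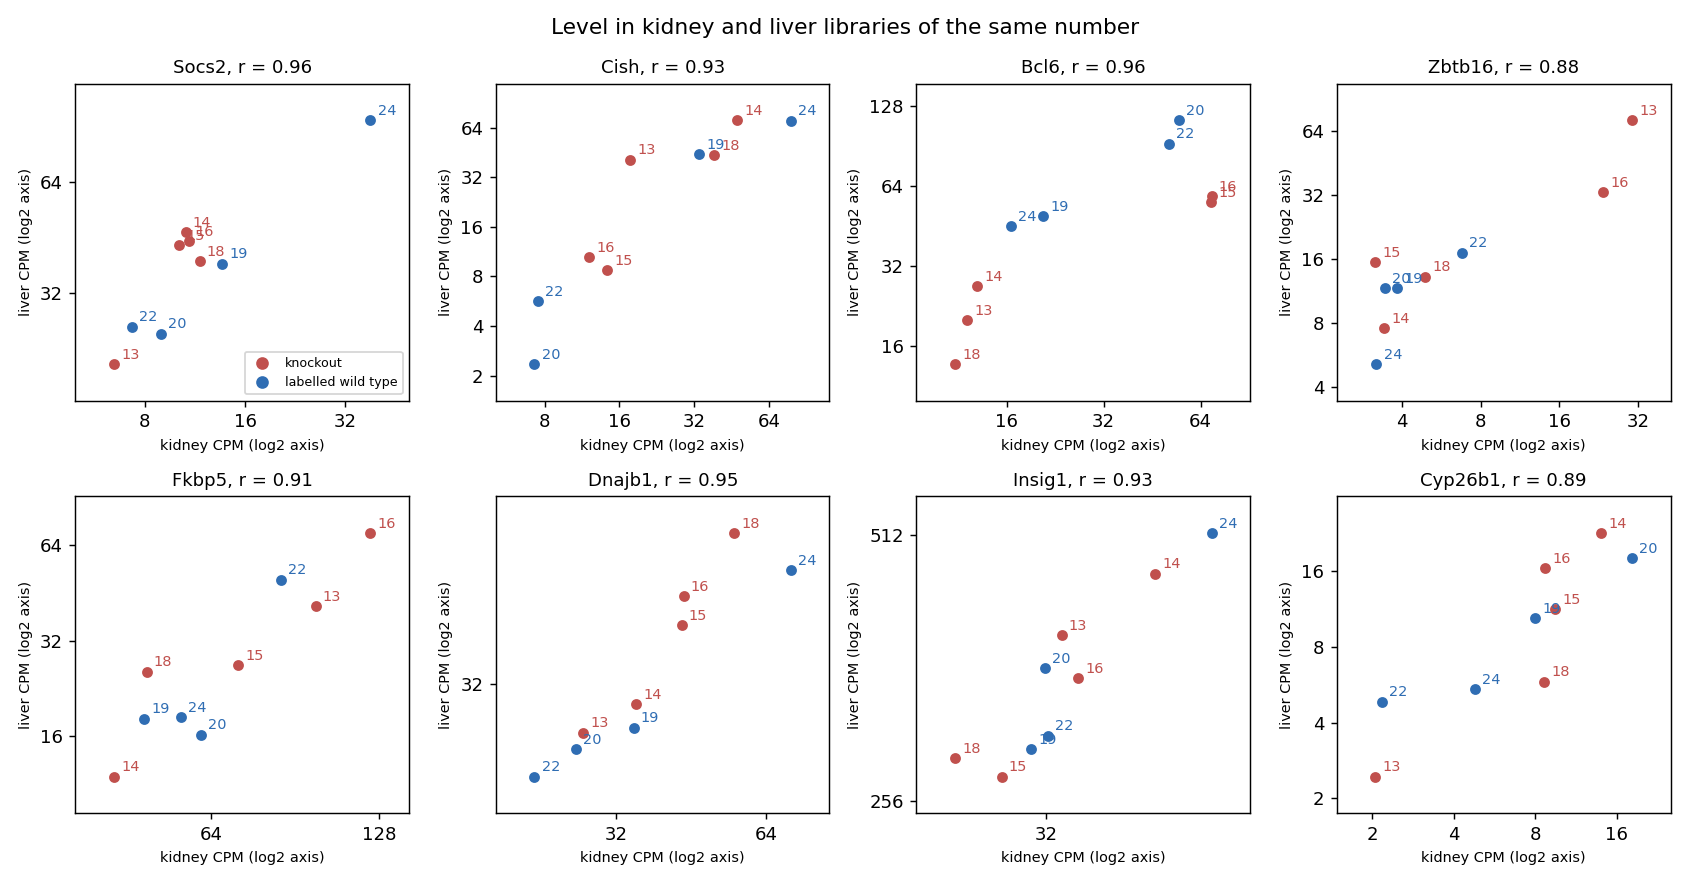
Kidney CPM (horizontal, log2 axis) against liver CPM (vertical, log2 axis) of 8 genes in the 9 numbered pairs, knockouts in red and pairs labelled wild type in blue. For Bcl6 knockout pairs 15 and 16 lie apart from 13, 14 and 18 in both tissues, and for Socs2 the pair labelled wild-type 24 lies above the other 8.

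Some glucocorticoid target genes carried a pair effect. Of 18 listed genes 14 were tested and 4 were called (Zbtb16, Dusp1, Fkbp5 and Klf9), against 2.17% of all genes. With the trend taken out 3 of them were also called, and the median r was 0.531 against 0.292 over all genes. All 14 tested members had r above 0, as had 73.0% of all genes. Without the pair labelled wild-type 24 the count was 2. The list was chosen with earlier results of these data known, so its count is a description.

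Zbtb16, the zinc finger transcription factor PLZF, which glucocorticoids induce (chr9:48654297-48836222, minus strand), was called with the smallest p of this list. Zbtb16 was measured at 30.4, 3.43, 3.17, 23.6 and 4.9 CPM in knockout kidneys 13, 14, 15, 16 and 18 and at 3.83, 3.45, 6.79 and 3.2 CPM in the kidneys labelled wild-type 19, 20, 22 and 24. Liver Zbtb16 stood at 71.8, 7.54, 15.4, 33 and 13.2 CPM in the knockouts and at 11.6, 11.7, 17 and 5.1 CPM in the libraries labelled wild type, in the same order. Pairs 13 and 16 stood far above the other knockouts in both tissues, and among the pairs labelled wild type 22 was the highest and 24 the lowest in both. Zbtb16 deviations had r = 0.883 (exact permutation p = 0.00417) and rho = 0.85 (exact permutation p = 0.0104) between the tissues over 9 pairs, and r was 0.764 without pairs 13 and 16. Zbtb16 had an adjusted p of 0.00361 in edgeR (2.47e-32 to 0.0932 over its alternatives), and no single left-out pair ended the call. Fkbp5 encodes a co-chaperone that binds the glucocorticoid receptor complex (chr17:28399094-28517527, minus strand). Fkbp5 was measured at 98.5, 42.8, 71.6, 124 and 48.9 CPM in knockout kidneys 13, 14, 15, 16 and 18 and at 48.4, 61.2, 85.3 and 56.5 CPM in the kidneys labelled wild-type 19, 20, 22 and 24. Liver Fkbp5 stood at 41.1, 11.9, 26.8, 69.8 and 25.6 CPM in the knockouts and at 18.2, 16.2, 49.7 and 18.4 CPM in the libraries labelled wild type, in the same order. Pairs 16 and 13 were again the highest knockouts and pair 22 the highest of those labelled wild type, in kidney and in liver. For Fkbp5 the deviations gave r = 0.906 (exact permutation p = 0.00243) and rho = 0.85 (exact permutation p = 0.00313) over 9 pairs, with r = 0.775 once pairs 14 and 16 were left out. EdgeR gave Fkbp5 an adjusted p of 0.0126 (2.74e-19 to 0.0329 over its alternatives), and no single left-out pair ended the call. Fkbp5 overlaps 3 unnamed transcripts, so its count depends on how shared reads were assigned.

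Dusp1 encodes a phosphatase that switches off MAP kinases and responds to glucocorticoids and to acute stimulation (chr17:26505590-26562128, minus strand). Dusp1 was measured at 47.5, 41.7, 23.7, 47.2 and 44.9 CPM in knockout kidneys 13, 14, 15, 16 and 18 and at 23.2, 24.5, 25.6 and 151 CPM in the kidneys labelled wild-type 19, 20, 22 and 24. Liver Dusp1 stood at 61.2, 97.1, 35, 34.5 and 55.7 CPM in the knockouts and at 34.2, 27, 46.6 and 162 CPM in the libraries labelled wild type, in the same order. The pair labelled wild-type 24 was the highest of all in both tissues, outside the other 8 pairs, and pair 15 was low in kidney and pairs 15 and 16 in liver among the knockouts. Dusp1 deviations had r = 0.84 (exact permutation p = 0.084) and rho = 0.583 (exact permutation p = 0.124) between the tissues over 9 pairs, and r was 0.54 without pairs 15 and 24. Dusp1 had an adjusted p of 0.00896 in edgeR (1.29e-27 to 0.248 over its alternatives), and the call ended without pair 24 (adjusted p = 0.248). Dusp1 overlaps Ergic1 on the other strand. Klf9, a Krüppel-like factor that glucocorticoids induce, was at 134 to 243 CPM over the 9 kidneys and 92.1 to 247 CPM over the 9 livers, with pair 13 the highest in both tissues. EdgeR gave Klf9 an adjusted p of 0.037 (1.02e-06 to 0.227 over its alternatives), and the call ended without pairs 13, 15, 19, 20 and 24 in turn (adjusted p = 0.187, 0.0679, 0.063, 0.0656 and 0.0527). The adrenal gland makes the hormone and lies on the kidney. Its markers summed to 216 CPM in kidney 16 and 3.81 to 5.60 CPM in the other 8 kidneys, and the adrenal enzyme gene Cyp11b2 was at 0 in all kidneys labelled wild type. In liver the same markers summed to 8.59 to 23.1 CPM in the knockouts, highest in pair 13, and to 8.26 to 18 CPM in those labelled wild type, with Cyp11b1 at 0 in all 9. The part of adrenal tissue in these values was not tested. In bulk tissue, fewer cells of a type and less RNA per cell cannot be told apart.

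Cytosolic heat shock genes held the largest share of called genes among the lists with 10 or more tested members. Of 18 listed genes 17 were tested and 9 were called, where 2.17% of all genes were called, 8 of them also with the trend taken out, and the median r was 0.789. Pair 16 lay above its group mean in both tissues for 17 of 17 genes and the pair labelled wild-type 24 for 16 of 17, while pair 20 lay below in both for 15 and pair 22 for 14. Without the pair labelled wild-type 24 only Dnajb1 remained called, and without pairs 16 and 24 together 2 of the 17 were called.

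Dnajb1 encodes an HSP40 that delivers clients to HSP70 (chr8:83608193-83612653, plus strand). Dnajb1 was measured at 27.5, 35.1, 43.3, 43.7 and 55.1 CPM in knockout kidneys 13, 14, 15, 16 and 18 and at 34.7, 26.6, 22 and 71.7 CPM in the kidneys labelled wild-type 19, 20, 22 and 24. Liver Dnajb1 stood at 26.8, 29.8, 39.8, 44.2 and 55.9 CPM in the knockouts and at 27.3, 25.2, 22.8 and 48.7 CPM in the libraries labelled wild type, in the same order. The order of the pairs was almost the same in both tissues: pair 18 was the highest knockout, pair 13 the lowest, and the pair labelled wild-type 24 was above the other 3 of its group. Dnajb1 deviations had r = 0.948 (exact permutation p = 0.000347) and rho = 0.967 (exact permutation p = 0.000347) between the tissues over 9 pairs, and r was 0.945 without pairs 22 and 24. Dnajb1 had an adjusted p of 0.000767 in edgeR (4.67e-28 to 0.0295 over its alternatives), and no single left-out pair ended the call. Hspa1b encodes the stress-inducible HSP70 (chr17:34956436-34959238, minus strand). Hspa1b was measured at 36.5, 39.7, 23.9, 79.7 and 43.2 CPM in knockout kidneys 13, 14, 15, 16 and 18 and at 18.7, 20.9, 17.8 and 104 CPM in the kidneys labelled wild-type 19, 20, 22 and 24. Liver Hspa1b stood at 19.1, 30.2, 25.1, 79.5 and 50.3 CPM in the knockouts and at 23.5, 13.1, 13.1 and 80.8 CPM in the libraries labelled wild type, in the same order. Pair 16 and the pair labelled wild-type 24 were above all others in both tissues, with no overlap. For Hspa1b the deviations gave r = 0.898 (exact permutation p = 0.0129) and rho = 0.7 (exact permutation p = 0.0569) over 9 pairs, with r = 0.462 once pairs 16 and 24 were left out. EdgeR gave Hspa1b an adjusted p of 0.00147 (2.21e-40 to 0.222 over its alternatives), and the call ended without pair 24 (adjusted p = 0.0549). Hspa1b has a near-identical neighbour, Hspa1a, and how reads were split between them is not given in the sources used here.

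Hsph1, an HSP110 exchange factor, was at 72 to 186 CPM over the 9 kidneys and 33.7 to 139 CPM over the 9 livers, Hspa8, the constitutive HSP70, at 891 to 2056 CPM over the 9 kidneys and 1072 to 2239 CPM over the 9 livers, and Chordc1, an HSP90 co-chaperone, at 41.6 to 73.4 CPM over the 9 kidneys and 47.9 to 101 CPM over the 9 livers. In each of these 3 genes pair 16 and the pair labelled wild-type 24 were the 2 highest in kidney and in liver. Dnajb4, another HSP40, is not on the list and was called as well. It was at 19 to 40.5 CPM over the 9 kidneys and 25.8 to 53.9 CPM over the 9 livers. There the pair labelled wild-type 24 was highest and pair 13 the lowest knockout. EdgeR's adjusted p values were 0.00751 for Hsph1 (2.88e-19 to 0.249 over its alternatives), 0.00751 for Hspa8 (4.57e-17 to 0.176), 0.0117 for Chordc1 (3.18e-10 to 0.337) and 0.00361 for Dnajb4 (1.55e-13 to 0.0705). All 4 calls ended without the pair labelled wild-type 24 and not without any other pair, at adjusted p = 0.051 for Hsph1, 0.0687 for Hspa8, 0.0765 for Chordc1 and 0.0705 for Dnajb4. Without pairs 16 and 24, the farthest from the kidney median, r was 0.321 for Hsph1, 0.508 for Hspa8 and 0.406 for Chordc1.

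The other called members of the list, named after their values were seen, depended on more pairs. Hsp90aa1, the inducible HSP90, was at 263 to 509 CPM over the 9 kidneys and 207 to 458 CPM over the 9 livers, Dnaja1 at 179.5 to 356 CPM over the 9 kidneys and 226 to 399 CPM over the 9 livers, Hspb1, a small heat shock protein, at 16.3 to 37.4 CPM over the 9 kidneys and 44 to 76.9 CPM over the 9 livers, and Hspa4l at 5.79 to 18.8 CPM over the 9 kidneys and 4.91 to 9.73 CPM over the 9 livers. Hsp90aa1 had an adjusted p of 0.0317 in edgeR (4.30e-08 to 0.732 over its alternatives), and the call ended without pairs 19, 20, 22 and 24 in turn (adjusted p = 0.0593, 0.0624, 0.0537 and 0.137). EdgeR gave Dnaja1 an adjusted p of 0.0317 (2.95e-08 to 0.76 over its alternatives), and the call ended without pairs 13, 16, 19, 20, 22 and 24 in turn (adjusted p = 0.0615, 0.0571, 0.0538, 0.0567, 0.0537 and 0.108). Hspb1 had an adjusted p of 0.0254 in edgeR (7.12e-07 to 0.117 over its alternatives), and the call ended without pairs 13, 16, 19 and 24 in turn (adjusted p = 0.0931, 0.0511, 0.0514 and 0.0527). EdgeR gave Hspa4l an adjusted p of 0.0254 (8.31e-09 to 0.123 over its alternatives), and the call ended without pairs 13 and 24 in turn (adjusted p = 0.118 and 0.0538). For Dnaja1 and Hsp90aa1 r turned negative, to -0.242 and -0.316, once pairs 16 and 24 were left out and the group means taken anew.

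Promoters of 2 of these genes are shown because heat shock elements in them can be read directly. Each line gives 250 bases before the RefSeq start on GRCm38.p6, 5′ to 3′, with GAANNTTC in capitals. Hspa1b lies at chr17:34959239-34959488 on the minus strand, with the match 104 bases before the start, and Hspb1 at chr5:135887669-135887918 on the plus strand, with matches 117 and 97 bases before it.
Hspa1b: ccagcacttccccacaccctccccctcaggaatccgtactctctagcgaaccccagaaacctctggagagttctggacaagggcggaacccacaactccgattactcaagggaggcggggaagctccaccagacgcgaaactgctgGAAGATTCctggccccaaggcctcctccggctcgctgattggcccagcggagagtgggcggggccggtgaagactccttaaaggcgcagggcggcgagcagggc
Hspb1: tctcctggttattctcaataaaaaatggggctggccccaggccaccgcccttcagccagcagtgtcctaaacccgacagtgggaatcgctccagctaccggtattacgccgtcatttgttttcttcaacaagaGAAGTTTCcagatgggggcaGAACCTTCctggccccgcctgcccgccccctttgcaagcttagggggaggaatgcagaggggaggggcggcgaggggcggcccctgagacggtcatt
GAANNTTC or its counterpart TTCNNGAA, each the same on both strands, occurred in 4212 of all 32817 promoter windows (12.8%), in 912 of the 9145 windows of tested genes (9.97%) and in 8 of the 19 windows of tested heat shock genes (42.1%), which belong to 7 of 14 genes. The windows of Dnajb1 and Chordc1 held neither. Hspa8 and Socs2 had no entry in the promoter table.

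Cirbp, the cold-inducible RNA-binding protein gene, which cooling raises and heating lowers, was called too (chr10:80165985-80172786, plus strand). Cirbp was measured at 40.5, 39.1, 40.0, 37.5 and 35 CPM in knockout kidneys 13, 14, 15, 16 and 18 and at 38.6, 46, 46.3 and 20.7 CPM in the kidneys labelled wild-type 19, 20, 22 and 24. Liver Cirbp stood at 35.6, 38.1, 32, 40.0 and 31.9 CPM in the knockouts and at 41.9, 43.5, 41 and 21.5 CPM in the libraries labelled wild type, in the same order. The pair labelled wild-type 24 was the lowest of all in both tissues and lay below the other 8 pairs without overlap. Pair 16 was not low: its kidney was within the knockout range and its liver was the highest knockout liver. Cirbp deviations had r = 0.917 (exact permutation p = 0.0931) and rho = 0.8 (exact permutation p = 0.134) between the tissues over 9 pairs, and r was 0.632 without pairs 22 and 24. Cirbp had an adjusted p of 0.00896 in edgeR (3.51e-11 to 0.684 over its alternatives), and the call ended without pair 24 (adjusted p = 0.684). Cirbp was chosen for naming after its values were seen. Body temperature is not in the labels, and its part in these values was not tested.

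Chaperones of the endoplasmic reticulum were also highest in pair 16 and in the pair labelled wild-type 24, with fewer calls. All 19 listed genes were tested and 3 were called (Sel1l, Hyou1 and Xbp1), against 2.17% of all genes. The count was 1 with the trend taken out and 0 without the pair labelled wild-type 24. The median r was 0.594 against 0.292 over all genes. Pair 16 lay above its group mean in both tissues for 19 of 19 genes and the pair labelled wild-type 24 for 17 of 19. Hyou1, an HSP70 relative of the lumen, was at 60.7 to 124 CPM over the 9 kidneys and 182 to 632 CPM over the 9 livers, with pair 16 highest in liver and the pair labelled wild-type 24 highest in kidney. Sel1l, part of the degradation machinery, was at 62 to 102 CPM over the 9 kidneys and 125 to 291 CPM over the 9 livers, and Xbp1, a transcription factor of the unfolded protein response, at 87.2 to 177 CPM over the 9 kidneys and 260.0 to 548 CPM over the 9 livers. Hyou1 had an adjusted p of 0.037 in edgeR (5.32e-09 to 0.821 over its alternatives), and the call ended without pairs 15, 16, 19, 20, 22 and 24 in turn (adjusted p = 0.0629, 0.057, 0.0627, 0.0646, 0.0685 and 0.0952). EdgeR gave Sel1l an adjusted p of 0.0365 (1.36e-06 to 0.382 over its alternatives), and the call ended without pairs 15, 16, 19, 20, 22 and 24 in turn (adjusted p = 0.0637, 0.0563, 0.063, 0.0539, 0.0597 and 0.0809). Xbp1 had an adjusted p of 0.0482 in edgeR (2.88e-06 to 0.232 over its alternatives), and the call ended without pairs 13, 15, 18, 19, 20 and 24 in turn (adjusted p = 0.127, 0.0768, 0.0501, 0.0538, 0.13 and 0.232). The r of Hyou1 was 0.743 with all pairs and -0.519 without pairs 16 and 24, with the group means taken anew.

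**Figure D4:**
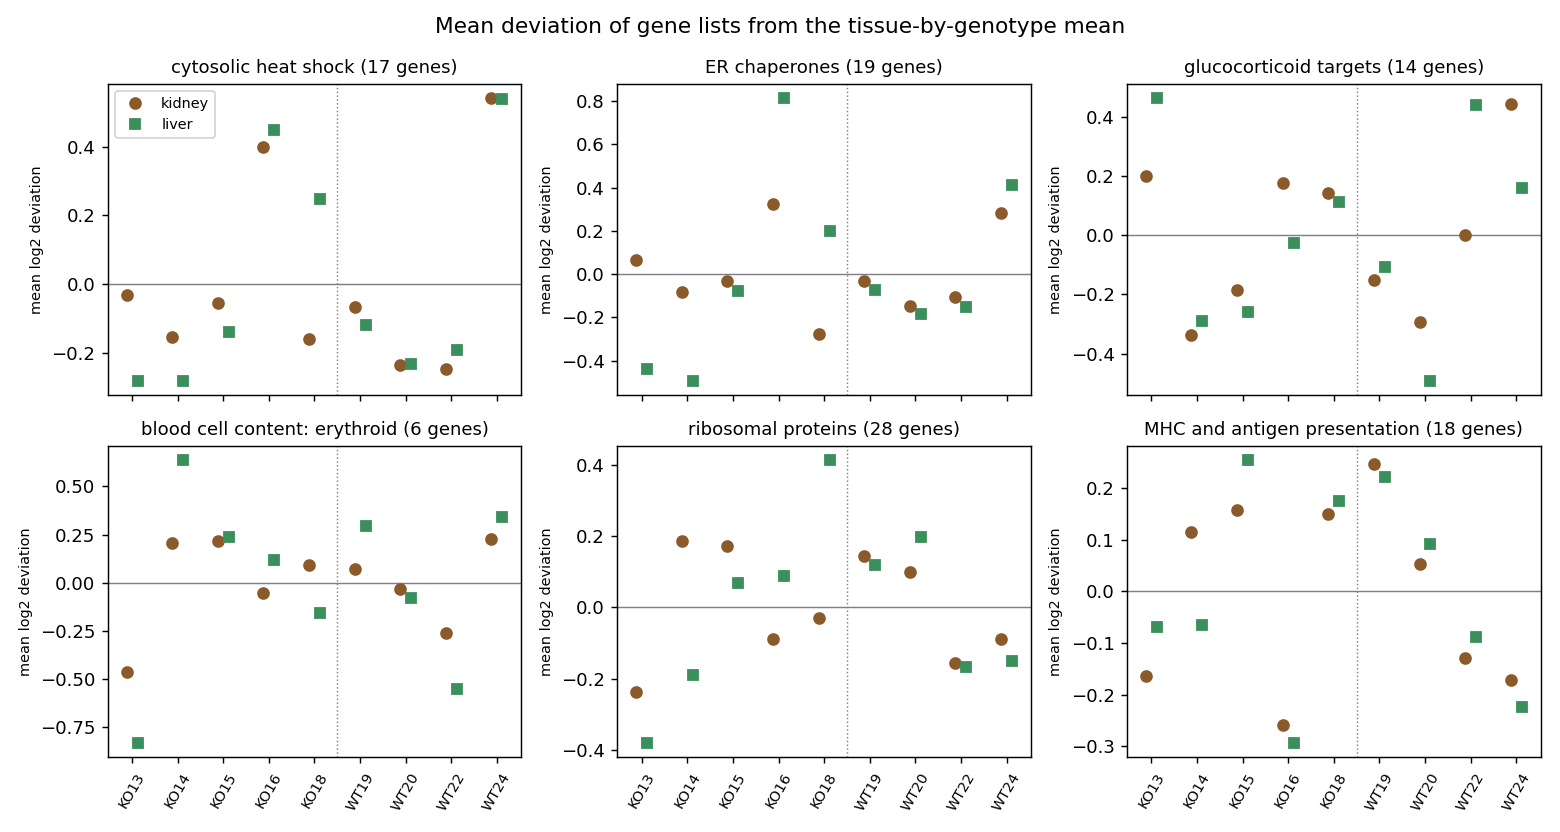
Mean log2 deviation of the tested members of 6 gene lists (vertical axis) in each numbered pair (horizontal axis), kidney as circles and liver as squares. For cytosolic heat shock genes pair 16 is at 0.40 in kidney and 0.45 in liver and the pair labelled wild-type 24 at 0.54 in both.

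Metabolic regulators with a pair effect included Atf4, Insig1 and Mid1ip1. Atf4 encodes the transcription factor of the integrated stress response, which raises amino acid synthesis and transport (chr15:80255184-80257541, plus strand). Atf4 was measured at 59.2, 102, 109, 77.4 and 109.9 CPM in knockout kidneys 13, 14, 15, 16 and 18 and at 78.3, 80.7, 70.6 and 124 CPM in the kidneys labelled wild-type 19, 20, 22 and 24. Liver Atf4 stood at 174, 273, 248, 213 and 302 CPM in the knockouts and at 199, 214, 170.2 and 288 CPM in the libraries labelled wild type, in the same order. Pairs 13 and 16 were the lowest knockouts in both tissues, pair 22 the lowest of the pairs labelled wild type, and the pair labelled wild-type 24 the highest of its group. Atf4 deviations had r = 0.957 (exact permutation p = 0.00174) and rho = 0.983 (exact permutation p = 0.00139) between the tissues over 9 pairs, and r was 0.902 without pairs 13 and 24. Atf4 had an adjusted p of 0.00377 in edgeR (1.81e-18 to 0.129 over its alternatives), and no single left-out pair ended the call. Of the 9 tested genes of that response Atf4 was the only one called, and the median r of the list was 0.278.

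Insig1 encodes an endoplasmic reticulum protein that holds back the sterol-sensing SREBP complex (chr5:28071363-28078662, plus strand). Insig1 was measured at 33.6, 45.3, 27.8, 35.4 and 23.9 CPM in knockout kidneys 13, 14, 15, 16 and 18 and at 30.5, 31.9, 32.2 and 54.2 CPM in the kidneys labelled wild-type 19, 20, 22 and 24. Liver Insig1 stood at 394, 463, 272, 352 and 286 CPM in the knockouts and at 292, 361, 303 and 515 CPM in the libraries labelled wild type, in the same order. Pair 14 was the highest knockout and the pair labelled wild-type 24 the highest of its group in both tissues, and pairs 15 and 18 were the lowest knockouts in both. For Insig1 the deviations gave r = 0.934 (exact permutation p = 0.0059) and rho = 0.9 (exact permutation p = 0.00799) over 9 pairs, with r = 0.763 once pairs 14 and 24 were left out. EdgeR gave Insig1 an adjusted p of 0.00377 (1.17e-18 to 0.0478 over its alternatives), and no single left-out pair ended the call. No other of the 23 tested cholesterol genes was called, and their median r was 0.0894, below the 0.292 of all genes.

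Mid1ip1 encodes a protein that promotes acetyl-CoA carboxylase activity in fatty acid synthesis (chrX:10715013-10719690, plus strand). Mid1ip1 was measured at 19.9, 31.1, 22.8, 20.0 and 23.3 CPM in knockout kidneys 13, 14, 15, 16 and 18 and at 28.6, 26.8, 21.4 and 35.4 CPM in the kidneys labelled wild-type 19, 20, 22 and 24. Liver Mid1ip1 stood at 33.6, 71.8, 48.6, 35 and 44.4 CPM in the knockouts and at 67.3, 71.8, 55.1 and 94.2 CPM in the libraries labelled wild type, in the same order. The highest values of each group were in pair 14 and in the pair labelled wild-type 24, in kidney and in liver. Mid1ip1 deviations had r = 0.951 (exact permutation p = 0.00243) and rho = 0.833 (exact permutation p = 0.0153) between the tissues over 9 pairs, and r was 0.836 without pairs 14 and 24. Mid1ip1 had an adjusted p of 0.00751 in edgeR (5.35e-11 to 0.071 over its alternatives), and no single left-out pair ended the call. Srebf1, the lipogenic transcription factor, was at 34.5 to 69.4 CPM over the 9 kidneys and 124 to 389.6 CPM over the 9 livers and was the only called gene of 16 tested in lipogenesis. Here too pair 14 was the highest knockout and the pair labelled wild-type 24 the highest of its group in both tissues. EdgeR gave Srebf1 an adjusted p of 0.0317 (4.91e-08 to 0.132 over its alternatives), and the call ended without pairs 13, 15, 19, 22 and 24 in turn (adjusted p = 0.0559, 0.0504, 0.056, 0.0685 and 0.0765). Over the lipogenesis list the median r was 0.0386.

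Cyp26b1 encodes an enzyme that breaks down retinoic acid (chr6:84571414-84593908, minus strand). Cyp26b1 was measured at 2.06, 14, 9.48, 8.67 and 8.64 CPM in knockout kidneys 13, 14, 15, 16 and 18 and at 7.96, 18.2, 2.18 and 4.78 CPM in the kidneys labelled wild-type 19, 20, 22 and 24. Liver Cyp26b1 stood at 2.43, 22.7, 11.3, 16.4 and 5.82 CPM in the knockouts and at 10.4, 18, 4.84 and 5.41 CPM in the libraries labelled wild type, in the same order. Pair 13 was the lowest knockout and pair 14 the highest in both tissues, and pair 20 was the highest and pair 22 the lowest of the pairs labelled wild type. For Cyp26b1 the deviations gave r = 0.886 (exact permutation p = 0.00104) and rho = 0.917 (exact permutation p = 0.00208) over 9 pairs, with r = 0.772 once pairs 13 and 22 were left out. EdgeR gave Cyp26b1 an adjusted p of 0.00341 (5.48e-28 to 0.0662 over its alternatives), and no single left-out pair ended the call. Pik3c2g encodes a class II phosphoinositide 3-kinase (chr6:139587221-139969284, plus strand). Pik3c2g was measured at 13.1, 4.46, 7.37, 18.8 and 11.5 CPM in knockout kidneys 13, 14, 15, 16 and 18 and at 14.4, 14.6, 12.4 and 4.11 CPM in the kidneys labelled wild-type 19, 20, 22 and 24. Liver Pik3c2g stood at 13.7, 5.17, 8.9, 12.3 and 13.9 CPM in the knockouts and at 12.3, 13.1, 9.4 and 3.8 CPM in the libraries labelled wild type, in the same order. Pair 14 was the lowest knockout and the pair labelled wild-type 24 the lowest of its group in both tissues, each below the other pairs of its group. Pik3c2g deviations had r = 0.94 (exact permutation p = 0.00729) and rho = 0.767 (exact permutation p = 0.0257) between the tissues over 9 pairs, and r was 0.666 without pairs 14 and 24. Pik3c2g had an adjusted p of 0.00129 in edgeR (5.18e-23 to 0.031 over its alternatives), and no single left-out pair ended the call.

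Other metabolic genes rested on fewer pairs. Hdc, histidine decarboxylase, which makes histamine, was at 3.67 to 12.1 CPM over the 9 kidneys and 4.74 to 35.5 CPM over the 9 livers, highest in pairs 13 and 22 in both tissues. Hdc had an adjusted p of 0.00481 in edgeR (3.48e-19 to 0.0677 over its alternatives), and the call ended without pair 22 (adjusted p = 0.0677). Dio1, the type 1 deiodinase that activates thyroid hormone, was at 14.5 to 33.3 CPM over the 9 kidneys and 81.6 to 184 CPM over the 9 livers, highest among knockouts in pair 13 and of its group in the pair labelled wild-type 24. EdgeR gave Dio1 an adjusted p of 0.00489 (6.46e-15 to 0.119 over its alternatives), and the call ended without pair 13 (adjusted p = 0.0931). Ppara, the nuclear receptor of fasting fat oxidation, was at 9.51 to 29.4 CPM over the 9 kidneys and 21.4 to 51.3 CPM over the 9 livers, with pair 13 highest in both tissues. Ppara had an adjusted p of 0.037 in edgeR (7.52e-09 to 0.41 over its alternatives), and the call ended without pairs 13, 15, 18, 19 and 20 in turn (adjusted p = 0.278, 0.0643, 0.0751, 0.0636 and 0.0618). It was the only called gene of 30 tested in its list of fatty acid oxidation and ketogenesis genes, and the median r of that list was 0.111. Hpd, a tyrosine breakdown enzyme named after its values were seen, was at 19.4 to 30.8 CPM over the 9 kidneys and 1545 to 2551 CPM over the 9 livers, lowest in the pair labelled wild-type 24 in both tissues. EdgeR gave Hpd an adjusted p of 0.0436 (1.38e-10 to 0.384 over its alternatives), and the call ended without pairs 13, 15, 19, 20, 22 and 24 in turn (adjusted p = 0.131, 0.0768, 0.0774, 0.0797, 0.0702 and 0.384).

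Abcb1b, a drug efflux pump of the P-glycoprotein family, was at 3.65 to 23.7 CPM over the 9 kidneys and 1.84 to 8.48 CPM over the 9 livers. Pair 14 was the lowest knockout in both tissues, and the pair labelled wild-type 24, just above the highest knockout, stood above the other 3 of its group. Abcb1b had an adjusted p of 0.00341 in edgeR (3.09e-23 to 0.00879 over its alternatives). It reached the level filter in 5 of the 9 fits that left out 1 pair, those without 14, 18, 19, 20 and 22, and was called in each. It missed the filter in the others, among them the fit without the pair labelled wild-type 24. Its call without that pair was therefore not tested, and the range above does not cover it. The gene is overlapped by 2 other transcripts.

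The genes called in each fit also included nuclear proteins and 1 predicted gene. Banp encodes a nuclear protein that binds CpG-containing promoters (chr8:121949750-122029258, plus strand). Banp was measured at 13.5, 15.5, 22.8, 20.5 and 28 CPM in knockout kidneys 13, 14, 15, 16 and 18 and at 16.1, 13.3, 6.4 and 22.3 CPM in the kidneys labelled wild-type 19, 20, 22 and 24. Liver Banp stood at 16.8, 15.3, 24.7, 23.9 and 28.5 CPM in the knockouts and at 19.1, 17.5, 8.79 and 29.4 CPM in the libraries labelled wild type, in the same order. Pair 18 was the highest knockout and pair 22 the lowest pair of all in both tissues, and pairs 13 and 14 were the lowest knockouts. Banp deviations had r = 0.981 (exact permutation p = 0.00104) and rho = 0.933 (exact permutation p = 0.00243) between the tissues over 9 pairs, and r was 0.943 without pairs 22 and 24. Banp had an adjusted p of 0.000386 in edgeR (3.66e-34 to 0.0309 over its alternatives), and no single left-out pair ended the call. Several annotated transcripts overlap Banp.

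Nktr encodes a large cyclophilin-related protein (chr9:121719169-121756843, plus strand). Nktr was measured at 48, 21.4, 20.1, 43.5 and 20.1 CPM in knockout kidneys 13, 14, 15, 16 and 18 and at 18.1, 25.8, 33.7 and 33.3 CPM in the kidneys labelled wild-type 19, 20, 22 and 24. Liver Nktr stood at 35, 15.8, 16.2, 25.7 and 10.9 CPM in the knockouts and at 12, 15.8, 20.1 and 20.0 CPM in the libraries labelled wild type, in the same order. Pairs 13 and 16 were the highest knockouts in both tissues, above the other 3 without overlap, and pair 19 was the lowest of its group. For Nktr the deviations gave r = 0.944 (exact permutation p = 0.00104) and rho = 0.967 (exact permutation p = 0.00174) over 9 pairs, with r = 0.894 once pairs 13 and 16 were left out. EdgeR gave Nktr an adjusted p of 0.000767 (3.48e-26 to 0.0165 over its alternatives), and no single left-out pair ended the call. A transcript on the other strand overlaps Nktr. Resf1 encodes a factor that silences retroelements (chr6:149309414-149335663, plus strand). Resf1 was measured at 62.5, 53.7, 25.7, 26.8 and 47.1 CPM in knockout kidneys 13, 14, 15, 16 and 18 and at 28.4, 18.8, 23.3 and 49.8 CPM in the kidneys labelled wild-type 19, 20, 22 and 24. Liver Resf1 stood at 26.3, 49.6, 18.7, 18.1 and 24.5 CPM in the knockouts and at 27.9, 13.3, 16.9 and 45 CPM in the libraries labelled wild type, in the same order. Pairs 15 and 16 were the lowest knockouts in both tissues and the pair labelled wild-type 24 the highest of its group, while pair 13 was the highest kidney and pair 14 the highest liver. Resf1 deviations had r = 0.842 (exact permutation p = 0.00521) and rho = 0.85 (exact permutation p = 0.00556) between the tissues over 9 pairs, and r was 0.762 without pairs 15 and 24. Resf1 had an adjusted p of 0.00628 in edgeR (3.88e-16 to 0.059 over its alternatives), and no single left-out pair ended the call.

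Gm15962 is a predicted gene that overlaps Keg1 on the opposite strand (chr19:12706055-12721247, minus strand). Gm15962 was measured at 40.6, 44.4, 20.6, 19.2 and 35.2 CPM in knockout kidneys 13, 14, 15, 16 and 18 and at 35.1, 13.7, 14.9 and 71.8 CPM in the kidneys labelled wild-type 19, 20, 22 and 24. Liver Gm15962 stood at 4.95, 12.7, 4.99, 2.98 and 7.25 CPM in the knockouts and at 7.26, 1.67, 1.93 and 12.6 CPM in the libraries labelled wild type, in the same order. Pair 14 was the highest knockout and pair 16 the lowest in both tissues, and pair 20 was the lowest of its group. For Gm15962 the deviations gave r = 0.93 (exact permutation p = 0.00417) and rho = 0.9 (exact permutation p = 0.0121) over 9 pairs, with r = 0.859 once pairs 20 and 24 were left out. EdgeR gave Gm15962 an adjusted p of 0.00129 (4.27e-30 to 0.0306 over its alternatives), and no single left-out pair ended the call. Since the strand setting is not given in the sources used here, these reads cannot be told apart from reads of Keg1.

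Clock genes had a high median r. Of 20 tested genes 2 were called (Arntl and Cry2), against 2.17% of all genes. There were 18 with r above 0, against 73.0% of all genes, and the median r was 0.636 against 0.292. Arntl, the clock activator BMAL1, was at 6.36 to 17.7 CPM over the 9 kidneys and 7.16 to 28.2 CPM over the 9 livers, with the highest values of each group in pair 14 and in the pair labelled wild-type 24 in both tissues. Arntl had an adjusted p of 0.0217 in edgeR (2.02e-10 to 0.063 over its alternatives), and the call ended without pairs 19 and 24 in turn (adjusted p = 0.063 and 0.0559). Cry2, a clock repressor, was at 11.1 to 19.4 CPM over the 9 kidneys and 22.1 to 49.9 CPM over the 9 livers, with pair 16 highest in both tissues. EdgeR gave Cry2 an adjusted p of 0.0421 (1.20e-05 to 0.27 over its alternatives), and the call ended without pairs 13, 15, 16, 19, 22 and 24 in turn (adjusted p = 0.113, 0.0768, 0.112, 0.0658, 0.0702 and 0.0661). The output genes Nr1d1, Per1 and Dbp, named after their values were seen, spanned wide ranges and did not pass: Nr1d1 was at 30.9 to 100.3 CPM over the 9 kidneys and 23.3 to 186 CPM over the 9 livers (edgeR adjusted p = 0.147), Per1 at 10.8 to 63.6 CPM over the 9 kidneys and 4.88 to 74.4 CPM over the 9 livers (edgeR adjusted p = 0.229), and Dbp at 6.92 to 63.7 CPM over the 9 kidneys and 0.937 to 66 CPM over the 9 livers (edgeR adjusted p = 0.277). Nr1d1 was lowest in the pair labelled wild-type 24 in both tissues. The hour at which each mouse was killed is not in the labels, and its part was not tested.

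Immediate early genes, which respond within minutes to stimulation, had 4 calls of 11 tested (Dusp1, Klf2, Jun and Zfp36), against 2.17% of all genes. With the trend taken out there were also 4 calls, and the median r was 0.537 against 0.292 over all genes. Jun, an AP-1 subunit, was at 17.9 to 132 CPM over the 9 kidneys and 26.9 to 148 CPM over the 9 livers, highest in the pair labelled wild-type 24 in both tissues. Jun had an adjusted p of 0.0286 in edgeR (2.20e-19 to 0.521 over its alternatives), and the call ended without pairs 19, 20, 22 and 24 in turn (adjusted p = 0.062, 0.0724, 0.0583 and 0.521). Without pairs 20 and 24 the r of Jun was 0.145, against 0.792 with all 9. Klf2, a Krüppel-like factor of vessels and lymphocytes, was at 18.6 to 48.5 CPM over the 9 kidneys and 14.8 to 25.2 CPM over the 9 livers, highest in pair 18 in kidney and in pairs 15 and 18 in liver. EdgeR gave Klf2 an adjusted p of 0.0166 (4.82e-08 to 0.117 over its alternatives), and the call ended without pair 13 (adjusted p = 0.0615). Zfp36, which breaks down inflammatory mRNAs, was at 26.4 to 81.8 CPM over the 9 kidneys and 93 to 213 CPM over the 9 livers, with the pair labelled wild-type 24 highest in both tissues. Zfp36 had an adjusted p of 0.0365 in edgeR (2.42e-09 to 0.523 over its alternatives), and the call ended without pairs 15, 19, 20, 22 and 24 in turn (adjusted p = 0.0629, 0.0779, 0.0646, 0.0685 and 0.406). Leaving out the pair labelled wild-type 24 left 1 of the list called.

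A few genes of blood, immune and stromal cells were called, where 2.17% of all genes were called. Of 6 tested red cell genes 2 were called (Hbb-bt and Hba-a1), 0 with the trend taken out, and the median r of 0.809 was the highest of the 36 lists with a tested member. Hba-a1, an alpha globin, was at 247 to 509 CPM over the 9 kidneys and 307 to 1255 CPM over the 9 livers, and Hbb-bt, a beta globin, at 30.8 to 62.4 CPM over the 9 kidneys and 37.5 to 155 CPM over the 9 livers. Pair 13 was the lowest knockout and pair 22 the lowest of its group in both tissues for both genes, and near-identical globin copies make the split between genes uncertain. Hba-a1 had an adjusted p of 0.037 in edgeR (1.30e-07 to 0.537 over its alternatives), and the call ended without pairs 13, 15, 19, 20, 22 and 24 in turn (adjusted p = 0.284, 0.0627, 0.0514, 0.0551, 0.0547 and 0.0527). EdgeR gave Hbb-bt an adjusted p of 0.0314 (1.22e-08 to 0.411 over its alternatives), and the call ended without pairs 13, 18 and 22 in turn (adjusted p = 0.113, 0.0502 and 0.0708). The sum over the 8 listed red cell genes was 741 to 1340 CPM in knockout kidneys, 991 to 1420 CPM in those labelled wild type, 932 to 3370 CPM in knockout livers and 1310 to 3050 CPM in livers labelled wild type, lowest in pairs 13 and 22. How much blood stayed in each organ was not tested.

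Antigen presentation genes had 3 calls of 18 tested (H2-Q7, Psmb10 and H2-Q4), 0 with the trend taken out, and r above 0 for 18 of 18, with a median of 0.614. Over all genes 2.17% were called, r was above 0 for 73.0%, and the median was 0.292. H2-Q7, a class I gene, was at 11.9 to 26.7 CPM over the 9 kidneys and 47.5 to 119 CPM over the 9 livers, lowest in pair 16 and in the pair labelled wild-type 24 within each group in liver and in kidney. H2-Q4, a close copy, was at 14 to 30.4 CPM over the 9 kidneys and 36.6 to 66.2 CPM over the 9 livers with the same pairs lowest in kidney and liver, and reads shared by such copies make both uncertain. Psmb10, an immunoproteasome subunit, was at 12.2 to 19.2 CPM over the 9 kidneys and 51.2 to 116 CPM over the 9 livers. H2-Q7 had an adjusted p of 0.0175 in edgeR (8.20e-09 to 0.29 over its alternatives), and the call ended without pair 24 (adjusted p = 0.0559). EdgeR gave H2-Q4 an adjusted p of 0.0436 (3.45e-05 to 0.203 over its alternatives), and the call ended without pairs 13, 15, 16, 19, 20 and 22 in turn (adjusted p = 0.0983, 0.0788, 0.114, 0.08, 0.0514 and 0.0643). Psmb10 had an adjusted p of 0.037 in edgeR (3.90e-06 to 0.274 over its alternatives), and the call ended without pairs 13, 15, 18, 19, 20, 22 and 24 in turn (adjusted p = 0.177, 0.0629, 0.0594, 0.08, 0.0514, 0.0677 and 0.0553). Interferon response genes had 2 calls of 23, Bst2 and Irf7, 0 with the trend taken out, and a median r of 0.23, below the 0.292 of all genes. Bst2, a restriction factor at the cell surface, was at 11.6 to 25.4 CPM over the 9 kidneys and 272 to 567 CPM over the 9 livers, and Irf7, a transcription factor, at 9.84 to 15.6 CPM over the 9 kidneys and 42.2 to 112 CPM over the 9 livers, highest in pair 18 in both tissues for both genes. Bst2 had an adjusted p of 0.0126 in edgeR (4.19e-10 to 0.307 over its alternatives), and the call ended without pair 13 (adjusted p = 0.14). EdgeR gave Irf7 an adjusted p of 0.037 (8.73e-06 to 0.2 over its alternatives), and the call ended without pairs 13, 15, 18, 19, 20, 22 and 24 in turn (adjusted p = 0.159, 0.0745, 0.0534, 0.0627, 0.0553, 0.055 and 0.0527).

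Igkc, the antibody kappa constant region, was the 1 called gene of 3 tested lymphocyte markers, at 26.8 to 64.9 CPM over the 9 kidneys and 14.5 to 51.6 CPM over the 9 livers, with pair 22 the lowest in both tissues. Igkc had an adjusted p of 0.034 in edgeR (1.49e-09 to 0.328 over its alternatives), and the call ended without pairs 13, 19, 20, 22 and 24 in turn (adjusted p = 0.0931, 0.0593, 0.0558, 0.106 and 0.0585). The sum of the 20 lymphocyte markers was 63.1 to 137 CPM in kidney and 50.2 to 117 CPM in liver. Endothelial markers had 2 calls of 12, Cldn5, a tight junction protein at 8.6 to 16.6 CPM over the 9 kidneys and 11.8 to 23.3 CPM over the 9 livers, and Egfl7, a vessel growth factor at 38 to 63 CPM over the 9 kidneys and 35.2 to 65.2 CPM over the 9 livers, both lowest in pair 13 in kidney and liver. Cldn5 had an adjusted p of 0.043 in edgeR (2.05e-05 to 0.402 over its alternatives), and the call ended without pairs 13, 15, 18, 19, 20, 22 and 24 in turn (adjusted p = 0.273, 0.0609, 0.0724, 0.0783, 0.0558, 0.069 and 0.0559). EdgeR gave Egfl7 an adjusted p of 0.0436 (6.92e-05 to 0.406 over its alternatives), and the call ended without pairs 13, 15, 18, 19, 20, 22 and 24 in turn (adjusted p = 0.315, 0.0944, 0.0502, 0.0702, 0.0646, 0.0657 and 0.0559). Matrix genes had 1 call of 15, fibronectin (Fn1), at 16.3 to 26.5 CPM over the 9 kidneys and 942 to 1443 CPM over the 9 livers, with pairs 13 and 22 highest in both tissues. EdgeR gave Fn1 an adjusted p of 0.05 (3.53e-07 to 0.847 over its alternatives), and the call ended without pairs 13, 15, 19, 20, 22 and 24 in turn (adjusted p = 0.411, 0.0856, 0.0823, 0.0882, 0.103 and 0.0549). The first of these values lies just under the threshold. Macrophage and myeloid markers had no call among 11 tested, with a median r of 0.329.

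The deviations of single libraries were correlated with transcript length. The Spearman correlation across genes of deviation with transcript length was 0.634 in kidney 13 and 0.550 in liver 13, so long transcripts were high and short ones low in both, and the sign was the same in both tissues in 7 of 9 pairs, all but 14 and 16. A smooth trend on length and GC share explained 8.92% to 42.8% of the variance in a kidney library and 2.40% to 26.6% in a liver library. Over the 9 pairs the 2 tissues' length correlations had r = 0.624 (exact permutation p = 0.104) and rho = 0.517 (exact permutation p = 0.202), and r = 0.392 without pairs 13 and 24. None of the 4 such library measures, which also included GC share, mitochondrial percent and total counts, passed (smallest Benjamini-Hochberg adjusted exact permutation p = 0.208). With the trend taken out of each library the mean r was 0.216, and the labelled arrangement had the largest mean of all arrangements (exact permutation p = 0.000347, the smallest possible). Own-number correlations were then 0.15 to 0.382, and 8 of 9 kidneys and 8 of 9 livers correlated best with their own number, against all 9 libraries of the other tissue as well as within a genotype.

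**Figure D5:**
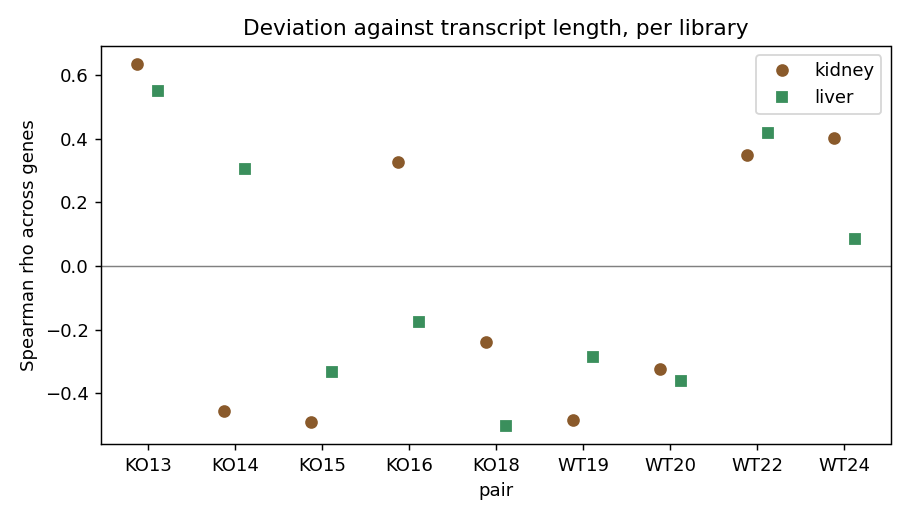
Spearman correlation across genes of the log2 deviation with transcript length (vertical axis) in each numbered pair (horizontal axis), for the kidney and the liver library. Pair 13 is at 0.634 in kidney and 0.550 in liver, and the signs differ between tissues in pairs 14 and 16.

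Long transcripts that were called and high in pair 13 included Usp9x, a deubiquitinase, at 22.6 to 82.4 CPM over the 9 kidneys and 14.9 to 43.8 CPM over the 9 livers, Ankhd1, an ankyrin-repeat protein, at 14.1 to 36.4 CPM over the 9 kidneys and 5.13 to 15 CPM over the 9 livers, and Dst, a cytoskeletal linker, at 144 to 251 CPM over the 9 kidneys and 44 to 68.7 CPM over the 9 livers. All 3, named after their values were seen, had their highest knockout value in pair 13 in both tissues. Usp9x had an adjusted p of 0.0117 in edgeR (4.49e-14 to 0.324 over its alternatives), and the call ended without pair 13 (adjusted p = 0.267). EdgeR gave Ankhd1 an adjusted p of 0.00854 (3.06e-12 to 0.24 over its alternatives), and the call ended without pair 13 (adjusted p = 0.158). Dst had an adjusted p of 0.0249 in edgeR (3.02e-08 to 0.384 over its alternatives), and the call ended without pairs 13, 15, 19 and 22 in turn (adjusted p = 0.148, 0.0673, 0.0658 and 0.0501). With the trend taken out, the adjusted p was 0.0285 for Usp9x, 0.041 for Ankhd1 and 0.384 for Dst. Wdfy1, the 1 called of 2 tested genes known to vary among C57BL/6 substrains, was at 19.9 to 47.8 CPM over the 9 kidneys and 12.7 to 32.7 CPM over the 9 livers, highest in pair 13. Wdfy1 had an adjusted p of 0.0117 in edgeR (2.89e-10 to 0.186 over its alternatives), and the call ended without pair 13 (adjusted p = 0.113). Another such gene, Nnt, was at no more than 0.654 CPM in all 18 libraries, the state known for C57BL/6J.

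Several short transcripts, such as Rps14 (785 bases) and Cox4i1 (765 bases), went the other way. Ribosomal protein genes had 3 calls of 28 (Rps14, Rpl18 and Rpl13), against 2.17% of all genes. The count was 1 with the trend taken out and 0 without pair 13, and the median r was 0.424. Rps14 was at 193 to 335 CPM over the 9 kidneys and 428 to 936 CPM over the 9 livers, lowest in pair 13 and highest in pair 18 in both tissues. Rpl13 was at 262 to 509 CPM over the 9 kidneys and 479 to 867 CPM over the 9 livers and Rpl18 at 141 to 267 CPM over the 9 kidneys and 314 to 585 CPM over the 9 livers, with the same pairs lowest and highest. The mean log2 deviation of all 28 genes in pair 13 was -0.237 in kidney and -0.380 in liver. In pair 18 that mean was -0.0298 in kidney and 0.412 in liver, so the list was not high in kidney 18. Rps14 had an adjusted p of 0.037 in edgeR (6.97e-07 to 0.427 over its alternatives), and the call ended without pairs 13, 15, 18, 19, 20, 22 and 24 in turn (adjusted p = 0.251, 0.0629, 0.0822, 0.067, 0.0558, 0.0708 and 0.0528). EdgeR gave Rpl13 an adjusted p of 0.0413 (1.07e-06 to 0.404 over its alternatives), and the call ended without pairs 13, 15, 18, 19, 20, 22 and 24 in turn (adjusted p = 0.259, 0.064, 0.0857, 0.0745, 0.0607, 0.0702 and 0.0559). Rpl18 had an adjusted p of 0.0413 in edgeR (2.32e-06 to 0.405 over its alternatives), and the call ended without pairs 13, 15, 18, 19, 20, 22 and 24 in turn (adjusted p = 0.251, 0.0637, 0.0986, 0.08, 0.0585, 0.0708 and 0.0559). Pseudogene copies of ribosomal genes make single values uncertain. Cox4i1, a subunit of cytochrome c oxidase, was the only call among 34 nuclear respiratory chain genes, at 546 to 934 CPM over the 9 kidneys and 779 to 1454 CPM over the 9 livers, again lowest in pair 13 and highest in pair 18. The mean log2 deviation of those 34 genes in pair 13 was -0.0881 in kidney and -0.230 in liver. In pair 18 it was -0.164 in kidney and 0.315 in liver, so Cox4i1 does not stand for its list there. Cox4i1 had an adjusted p of 0.0458 in edgeR (1.67e-06 to 0.487 over its alternatives), and the call ended without pairs 13, 15, 18, 19, 20, 22 and 24 in turn (adjusted p = 0.267, 0.0705, 0.0995, 0.0817, 0.0667, 0.0848 and 0.0549). Selenow, a selenoprotein gene named after its values were seen, was at 33.2 to 68.2 CPM over the 9 kidneys and 139 to 240.3 CPM over the 9 livers, low in pairs 13, 16 and 22 in kidney and in pairs 13 and 22 in liver. Selenow had an adjusted p of 0.0192 in edgeR (2.24e-07 to 0.338 over its alternatives), and the call ended without pairs 13 and 22 in turn (adjusted p = 0.134 and 0.0584). With the trend taken out its adjusted p was 0.237.

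Mitochondrially encoded genes had 2 calls of 14 tested in their list, mt-Nd6 and mt-Nd5, both subunits of complex I on overlapping opposite strands, with a median r of 0.589. mt-Nd6 was at 816 to 2603 CPM over the 9 kidneys and 452 to 1486 CPM over the 9 livers, with pair 14 the lowest of all in both tissues. mt-Nd5 was at 1579 to 5180 CPM over the 9 kidneys and 874 to 2389 CPM over the 9 livers, with pair 13 highest in both. mt-Nd6 had an adjusted p of 0.00917 in edgeR (5.83e-15 to 0.0684 over its alternatives), and the call ended without pair 14 (adjusted p = 0.0684). EdgeR gave mt-Nd5 an adjusted p of 0.0254 (1.30e-11 to 0.487 over its alternatives), and the call ended without pairs 13 and 15 in turn (adjusted p = 0.291 and 0.0529). The mitochondrial share of all counts was 5.96% to 9.55% in kidney and 2.05% to 4.08% in liver. By chromosome, the called share was 15.8% (3 of 19) for the mitochondrial genome and 1.06% to 3.08% on the autosomes, against 2.17% of all genes. The third mitochondrial call was mt-Te, a transfer RNA gene, at 7.22 to 35.2 CPM over the 9 kidneys and 3.91 to 22.1 CPM over the 9 livers and highest in pair 13. mt-Te had an adjusted p of 0.00917 in edgeR (3.11e-19 to 0.139 over its alternatives), and the call ended without pair 13 (adjusted p = 0.0615). No called gene fell among the 5 tested on the Y chromosome.

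Of 39 lists, 16 with tested members had no call, among them gluconeogenesis and fasting regulators (19 tested, median r 0.401), hypoxia response (13, 0.127), NRF2 and glutathione (14, 0.233), NAD metabolism and ADP-ribosylation (26, 0.203) and androgen responsive genes (11, 0.173). Cell division genes, with 4 tested, had a median r of -0.141. These medians lie on both sides of the 0.292 of all genes. A miss at this number of pairs does not show that such genes did not vary.

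H2afy itself did not pass the pair test. Its r was 0.828 (exact permutation p = 0.0469) with rho = 0.55 (exact permutation p = 0.194) over 9 pairs, and r was 0.328 without pairs 13 and 24. The edgeR adjusted p was 0.0872, and 0.539 without the pair labelled wild-type 24, within a range of 0.0036 to 0.539 over its alternatives. AC102496.1, an unnamed transcript, was called. In kidney it was at 23.8 to 31.7 CPM in the 5 knockouts and at 6.42 to 11.9 CPM in the other 3 wild types. The kidney labelled wild-type 24 was at 18.8 CPM. In liver the values were 18.7 to 33.8, 6.05 to 8.78 and 15.8 CPM in the same order. The genotypes were thus apart at this gene, and the pair labelled wild-type 24 lay between them in both tissues. Whether the label of that pair bears on the call was not tested. AC102496.1 had an adjusted p of 0.00481 in edgeR (6.68e-15 to 0.091 over its alternatives), and the call ended without pair 24 (adjusted p = 0.091).

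Strongly negative r between the 2 organs was rarer than when all liver numbers were exchanged within genotype. The labelled numbers put 4 genes between -1 and -0.9 and 23 between -0.9 and -0.8. With the numbers exchanged the means were 14.9 and 92.3 genes. The exchanged values were themselves lopsided, with a mean of 40.3 genes between 0.8 and 0.9. Exchanged arrangements leave out every own-number combination, so centring on the group mean moves their r down where own-number r is above 0. The comparison is thus partly set in advance. The most negative r values were those of Pank2, a coenzyme A synthesis kinase (-0.942), Dera, a deoxyribose-phosphate aldolase (-0.907), Tpst2, a sulfotransferase (-0.901), Hp, the plasma protein haptoglobin (-0.9), and Etfbkmt, a methyltransferase (-0.886). Dera was at 20.4 to 42.3 CPM over the 9 kidneys and 73.2 to 134 CPM over the 9 livers, and within the knockouts pair 14 was the highest kidney and the lowest liver. Hp was at 8.62 to 28 CPM over the 9 kidneys and 3845 to 6225 CPM over the 9 livers, with pairs 16 and 20 the highest kidneys and the lowest livers of their groups. With the trend taken out r was -0.315 for Pank2, -0.885 for Dera, -0.437 for Tpst2, -0.685 for Hp and -0.25 for Etfbkmt. None passed adjustment over the 8920 genes, where the smallest adjusted exact permutation p was 0.282, and these 5 were picked as the most negative.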

How the data were processed

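RNA of 9 kidneys and 9 livers of male mice, matched by genotype label and number, was analysed from raw gene counts deposited by the authors. Per the submitters' processing notes the tools were Trim Galore, STAR, featureCounts and DESeq2 on GRCm38; their versions, the strand setting and the handling of reads shared by genes are not given in the sources used here. Of 26506 gene identifiers, 26417 matched the annotation (GENCODE mouse release 21) for symbols, lengths and positions and 89 did not. Per-sample columns without a match numbered 0.

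Counts were scaled by TMM over the 18 libraries of both tissues together and given as CPM (log2 with a prior count of 2), so levels compare within a tissue. Deviations from the mean of tissue and genotype were correlated between tissues for genes with mean CPM of at least 5 in both, with exact permutation over all exchanges of numbers within genotype. EdgeR 4.0.16 (R 4.3.3, quasi-likelihood, robust) tested the 7 pair coefficients nested in genotype against a model of tissue and genotype, with Benjamini-Hochberg adjustment at 0.05 over all 8920 genes. Alternatives were library totals, DESeq2 size factors, CPM minimums of 1 and 20, edgeR's low-count filter, a prior count of 0.5, Spearman correlation, limma 3.58.1 voom, DESeq2 1.42.0, non-robust dispersions and leaving out each pair. Chosen after seeing the data were a natural spline trend (4 degrees of freedom) on transcript length and GC share, for the 8914 of 8920 genes with a length, and leaving out pairs 13 and 22 or 16 and 24. The fits were tested on simulated data.

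The members and the 39 lists (721 genes) were chosen with earlier results of these data known. Genes were named by rule: the 20 called with the smallest p, the 3 called with the smallest p of each list, the 5 most negative r with an exact p under 0.01, the 5 called with the largest spread of the pair mean, and H2afy, H2afy2, Nnt and Unc5a; others are named after their values were seen. H2afy2, the macroH2A2 gene, missed the level filter. Promoter sequences are from RefSeq on GRCm38.p6.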

Additional observations from a re-analysis of the deposited data

Results flagged for a closer look

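The mean of the kidney and liver deviation was compared among the 5 knockout pairs and among the 4 pairs labelled wild type. The comparison covered each named gene that passed the level filter and each list with more than 1 called gene. A pair was taken to stand apart by its gap to the nearest other pair, as a share of the group's range. That share had to exceed Dixon's critical value for that number of pairs. This was so in 20 of 180 groups (11.1%), where chance gives about 1 in 20. The share of the range is given in parentheses. Knockout pair 13 was higher for Dio1 (0.816), higher for Fn1 (0.75) and lower for Socs2 (0.903). Knockout pair 14 was lower for Abcb1b (0.757) and higher for Srebf1 (0.743). Knockout pair 16 was higher for Dnaja1 (0.741), higher for ER chaperones (0.71), lower for H2-Q7 (0.758), higher for Hsp90aa1 (0.756) and higher for Hyou1 (0.787), where ER chaperones stand for the list mean. Wild-type pair 22 was higher for Fkbp5 (0.895). The pair labelled wild-type 24 was higher for Abcb1b (0.908), higher for Chordc1 (0.854), lower for Cirbp (0.857), higher for Dnajb4 (0.831), higher for Dusp1 (0.837), lower for Hpd (0.848), higher for Hyou1 (0.835), lower for Nr1d1 (0.848) and higher for Zfp36 (0.88), 9 of the 20. Many of these genes were chosen because they varied between pairs, and the lists because they held called genes. The share of groups is therefore not a fair comparison with chance.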

How the results depend on the processing

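The mean kidney-liver correlation of 0.244 stayed positive under every setting tried. Of the settings given an exact permutation test, which the median over genes and limma's consensus correlation (0.255) were not, it missed the threshold in the one without pairs 13 and 22 (0.120, exact permutation p = 0.16). It was 0.155 to 0.308 when 1 pair was left out (lowest without pair 13), and the median over genes was 0.292. The count of 194 genes with a pair effect moved most: 84 with scaling by library totals, 121 without robust dispersions, 68 with the length and GC trend removed, 36 without pairs 13 and 22, 337 without pairs 16 and 24, 1532 with DESeq2's likelihood ratio test, and 41 (without pair 13) to 597 (without pair 14) when 1 pair was left out. The cause of these shifts was not tested. Of the 194 genes, 187 were shared with limma voom, 182 with DESeq2 size factors and 194 with DESeq2's test. The gap between own-number and other correlations, 0.390, was 0.179 with a lower filter on counts, which tests many more genes of low count. No setting gave a gene past the adjusted exact permutation test.

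Without pairs 16 and 24, r reversed for Dnaja1 (-0.242), Hyou1 (-0.519), Hsp90aa1 (-0.316) and Zfp36 (-0.190), and without the 2 pairs farthest from the kidney median, with the group means of all pairs kept, for Dnaja1 (-0.235), Hyou1 (-0.509) and Hsp90aa1 (-0.201). Over the single genes and list counts, 1485 alternative values were counted as unchanged, 326 lost the call, 176 moved, 1 gained a call and 7 reversed. Unchanged means the same direction and call for a gene, or a similar count for a list. Spearman correlation and the prior count of 0.5 do not enter the edgeR test. There the call of a gene with r above 0 could not change. Values without the 2 pairs farthest from the kidney median carry no call and were judged by r alone.

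As for the pairing itself, own-number correlations were above 0.1 in 8 of 9 pairs, and within a genotype 6 of 9 kidneys and 7 of 9 livers correlated best with their own number (4 and 7 against all libraries of the other tissue). Whether equal numbers mark 1 animal was not tested. Shared handling of libraries of equal number cannot be told apart from it. Without the replicate block of pair terms the biological coefficient of variation rose from 0.127 to 0.153, and with it the value was 0.114 (without pair 18) to 0.133 when 1 pair was left out. With 9 pairs the exact test cannot go below 0.000347.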
